A study of Mus musculus with 7 samples.

Results

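The data described here are the levels of 42 genes in mouse thymus, picked from 16734 genes measured by RNA sequencing because they were expressed in wild type and higher in 1 Ikaros mutant but not clearly in the other. A gene was taken when its wild type mean was at least 1 RPKM, when the lower of 2 ZnF4-/- libraries was at least 1.8 times the highest wild type library, and when at least 1 ZnF1-/- library lay within the wild type range. RPKM is the number of reads over exons divided by exon length and by library size, so levels of different genes can be set side by side. There were 43 genes that met these conditions, of which 1 was left out by name. The measured values themselves chose the genes. The higher level in ZnF4-/- and a ZnF1-/- library in the wild type range are therefore descriptions of the choice. The p-values given with them support nothing further.

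Thymus was taken from 4 week old mice of 3 genotypes, giving 3 wild type libraries (C57BL/6, replicates 1, 2A and 2B), 2 libraries of the Ikaros mutant ZnF1-/- and 2 of the Ikaros mutant ZnF4-/-. The labels give the mutants by their genotype alone and do not say how many animals went into a library. Replicate 1 of each genotype was read at 76 bp and the others at 50 bp, on different machines, and libraries of 1 read length are called a batch below.

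Ikaros, the product of Ikzf1, is a zinc finger transcription factor of lymphocytes that both represses and activates genes and is a tumour suppressor in developing T cells. It binds DNA through a row of zinc fingers near its amino terminus. The middle fingers hold the core motif GGGAA, and the outer fingers, the first and the fourth, adjust binding at subsets of sites. Each mutant lacks 1 of these outer fingers and keeps the rest of the protein. Most thymus cells are double-positive thymocytes, which carry both CD4 and CD8 and are still selecting their T cell receptor.

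Thymocyte genes dominated every library. The summed level of 10 double-positive thymocyte markers was 3352 to 4139 RPKM in wild type, 3647 to 4088 in ZnF1-/- and 2729 to 3262 in ZnF4-/-. Between 10185 and 10695 genes per library were at 1 RPKM or more, and Ikzf1 was at 142 to 175 RPKM in wild type, 183 and 194 in ZnF1-/- and 238 and 257 in ZnF4-/-. Those values cover the whole gene and do not show the missing finger. Sex followed batch and not genotype, with the female-specific RNA Xist at 90.6 RPKM or more in all 76 bp libraries and at 0.03 or less elsewhere. Depth was not given. In the 76 bp libraries it was estimated from the steps that single reads leave in low values, as 20080000 reads for wild type, 14270000 for ZnF1-/- and 6310000 for ZnF4-/-, and it is unknown for the 50 bp libraries. These estimates are uncertain, since most low values lay off such a step.

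Promoters of the genes are shown first, because the groups differ in a DNA-binding domain. RefSeq windows from 250 bases before to 50 bases after the transcription start (build GRCm38.p6) were at hand for 29 of the 42 genes, with 42 windows in all. Cd9 and Vcl are printed as genes whose windows held the Ikaros core motif more than once, with GGGAA in capitals, each read along its gene's strand. Ifih1 and Wls are printed for the core of the interferon-stimulated response element, which is GAAA, any 2 bases and GAAA again, and its match is in capitals.
Cd9 (chr6:125494711-125495010, minus strand): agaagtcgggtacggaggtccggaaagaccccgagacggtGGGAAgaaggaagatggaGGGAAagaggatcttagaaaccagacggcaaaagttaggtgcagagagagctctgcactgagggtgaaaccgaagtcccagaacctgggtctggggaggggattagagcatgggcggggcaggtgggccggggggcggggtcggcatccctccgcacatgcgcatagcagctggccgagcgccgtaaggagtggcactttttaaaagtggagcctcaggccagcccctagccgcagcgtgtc
Vcl (chr14:20929148-20929447, plus strand): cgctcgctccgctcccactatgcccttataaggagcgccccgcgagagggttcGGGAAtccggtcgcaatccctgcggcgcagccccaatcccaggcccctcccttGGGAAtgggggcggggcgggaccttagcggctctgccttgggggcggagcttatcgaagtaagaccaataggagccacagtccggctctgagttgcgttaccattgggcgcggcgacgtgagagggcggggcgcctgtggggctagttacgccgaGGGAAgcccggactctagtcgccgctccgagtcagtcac
Ifih1 (chr2:62646206-62646505, minus strand): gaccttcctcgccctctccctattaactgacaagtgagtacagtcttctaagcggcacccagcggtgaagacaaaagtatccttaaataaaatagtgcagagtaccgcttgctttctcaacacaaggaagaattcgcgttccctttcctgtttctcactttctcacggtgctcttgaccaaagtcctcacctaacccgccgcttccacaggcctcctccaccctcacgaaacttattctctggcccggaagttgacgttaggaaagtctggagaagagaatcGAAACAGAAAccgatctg
Wls (chr3:159839400-159839699, plus strand): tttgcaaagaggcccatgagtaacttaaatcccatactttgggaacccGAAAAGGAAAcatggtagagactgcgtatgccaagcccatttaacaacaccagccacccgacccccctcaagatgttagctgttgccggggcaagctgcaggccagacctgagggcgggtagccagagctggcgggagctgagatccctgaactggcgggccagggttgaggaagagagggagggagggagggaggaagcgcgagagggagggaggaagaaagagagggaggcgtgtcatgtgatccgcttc

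On either strand, GGGAA was in 23 of the 42 windows, or 54.8% (Wilson 95% interval 39.9% to 68.8%, over windows that are not independent). Over the 10400 windows of genes with a wild type mean of at least 1 RPKM the share was 64.1%. The longer form TGGGAA, every match of which is also a match of GGGAA, was in 12 windows (28.6%) against 22.6%. The response element core, which was looked for after the genes were known and can overlap a GGGAA match, was in 5 windows (11.9%, interval 5.19% to 25%) against 3.16%. Its matches were in Ifih1, Mapkapk3, Saa3, Tgfbi and Wls. These windows were also poorer in CpG than those of expressed genes in general, with a median ratio of observed to expected CpG of 0.569 against 0.776, and a ratio of at least 0.6 in 47.6% against 72.6%. A match only says that these letters are in the window.

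The genes were low in wild type. Their wild type means ran from 1.02 to 20.2 RPKM with a median of 2.03, whereas the median was 10.1 RPKM over the 10308 genes with a wild type mean of at least 1 RPKM and a value above 0 in every library. Of the 42, 20 were at 1 to 2 RPKM in wild type, 11 at 2 to 5, and 11 at 5 or more. In ZnF4-/- the means were 3.25 to 55.2 RPKM, which is 2.00 to 8.54 times the wild type mean with a median of 2.84. In ZnF1-/- they were 0.530 to 1.55 times wild type with a median of 0.932. In whole thymus, more cells of a type and more RNA per cell cannot be told apart.

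**Figure D1:**
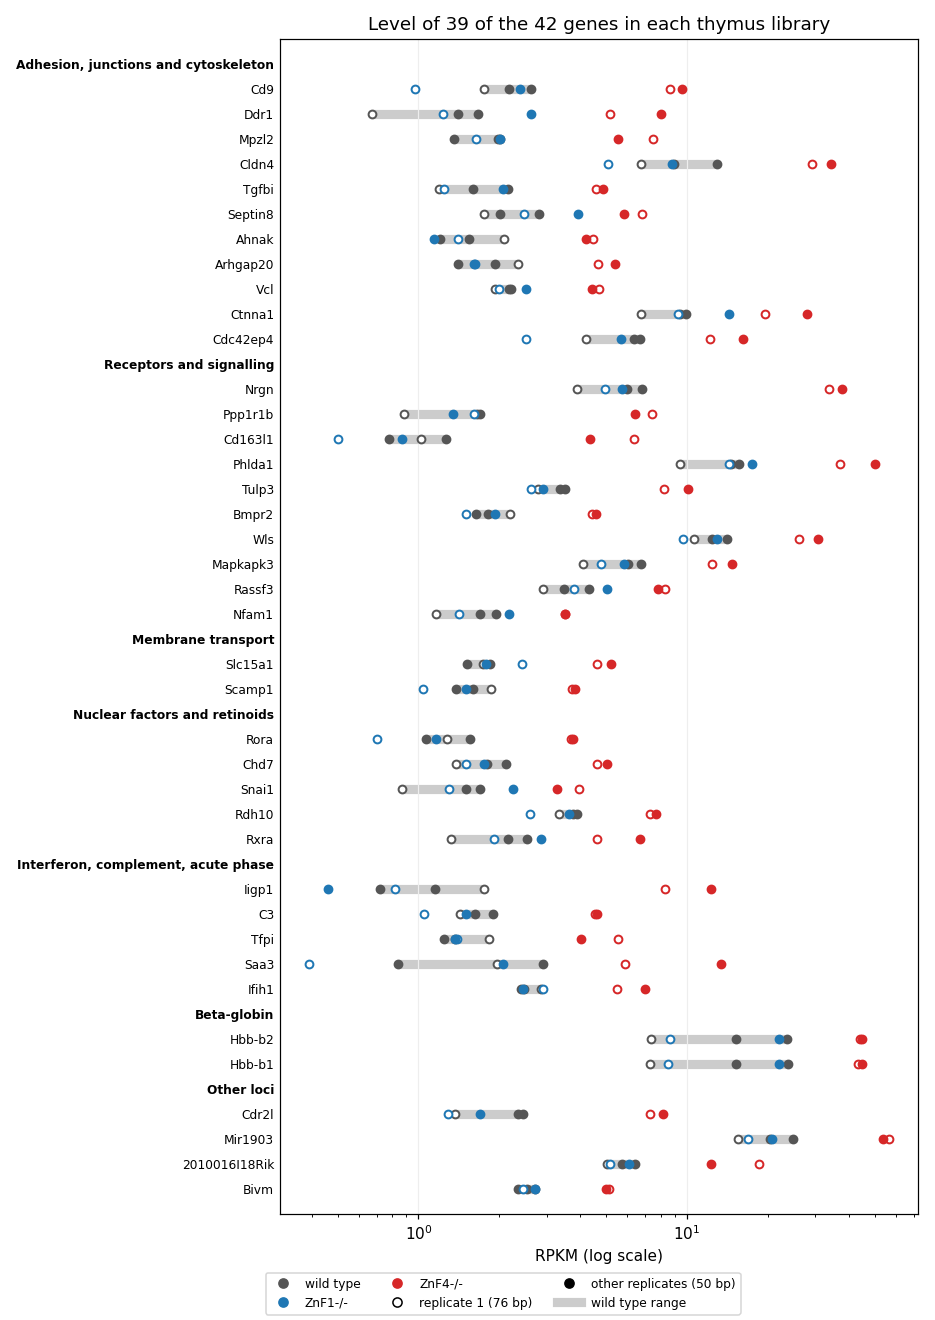
RPKM on a log scale in each of the 7 libraries for 39 of the 42 genes, in groups by known role; grey bars span the wild type range, open circles are replicate 1 (76 bp) and filled circles the 50 bp libraries. By the choice of the genes every red ZnF4-/- point lies to the right of its grey bar, and at least 1 blue ZnF1-/- point lies in it. Of all 42 genes, 11 have the other ZnF1-/- library above the wild type range and 18 below it, and 20 are at 1 to 2 RPKM in wild type.

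In limma's moderated test on log2(RPKM + 0.5), adjusted over the 10498 genes tested, 35 of the 42 were called higher in ZnF4-/- than in wild type, beside 2.24% of all genes tested. With the replicate number as a block, all 42 were called, beside 6.1% of all. Against ZnF1-/-, 28 were called higher in ZnF4-/-, beside 2.02% of all, and 41 with the block, beside 5.19%; the exception with the block was Snai1. The choice of the genes used these same contrasts, so the shares are not read further. The 7 genes not called against wild type without the block were Hbb-b1, Hbb-b2, Cdc42ep4, Saa3, Rxra, Snai1 and Nfam1.

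Genes of cell adhesion, cell junctions and the cytoskeleton made up 11 of the 42. In this group 10 were called higher in ZnF4-/- than in wild type, beside 35 of all 42 and 2.24% of all genes tested. The means were 2.17 to 5.27 times wild type. Calls in this and the later role groups follow largely from the choice of the genes, and the groups were formed after the values were seen. Adhesion receptors of this group included the tetraspanin Cd9, the collagen receptor tyrosine kinase Ddr1 and the immunoglobulin-domain protein Mpzl2. Cd9 (chromosome 6, 125410284 to 125444809, minus strand; gene coordinates are on build NCBIM37, which is mm9) was at 1.76, 2.62 and 2.18 RPKM in wild type, at 0.97 and 2.39 in ZnF1-/- and at 8.66 and 9.61 in ZnF4-/-. Both ZnF4-/- libraries were thus above 3 times any other library, and replicate 1 of ZnF1-/- was the lowest of the 7. The log2 fold change against wild type was 1.85 ± 0.29 (SE; limma adjusted p = 0.0214), and against ZnF1-/- it was 2.22 ± 0.32 (adjusted p = 0.0148).

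Ddr1 (chromosome 17, 35818512 to 35841566, minus strand) was at 0.67, 1.67 and 1.40 RPKM in wild type, at 1.23 and 2.63 in ZnF1-/- and at 5.18 and 7.97 in ZnF4-/-. Here the 50 bp library of ZnF1-/- also lay above every wild type library, and within each batch ZnF1-/- was higher than wild type, by 1.84 and 1.71 times. The difference between the mutants was 1.58 ± 0.40 log2 units and was not called by limma (adjusted p = 0.130), but it was with the block (adjusted p = 0.000798). Mpzl2, also known for adhesion between thymocytes and thymic epithelium, was at 1.36 to 2.02 RPKM in wild type, 1.64 and 2.02 in ZnF1-/- and 7.44 and 5.52 in ZnF4-/-.

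Junction components were represented by Cldn4, a claudin of tight junctions, and Ctnna1, the alpha-catenin that links cadherins to actin. Cldn4 (chromosome 5, 135420996 to 135422804, minus strand) was at 6.73, 12.95 and 8.94 RPKM in wild type, 5.10 and 8.81 in ZnF1-/- and 29.3 and 34.2 in ZnF4-/-. The lower ZnF4-/- value was above 2 times the highest wild type value, and both ZnF1-/- values were in the lower part of the wild type range or under it. Its log2 fold change was 1.73 ± 0.31 against wild type (limma adjusted p = 0.0347) and 2.16 ± 0.34 against ZnF1-/- (adjusted p = 0.0206).

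Cldn4 is also a marker of thymic epithelium, so the rest of that list is given with it. Of its 12 genes, 7 were under 1 RPKM in every library, among them the epithelial transcription factor Foxn1, at 0.06 RPKM or less, and the keratin Krt14, at 0.01 or less. Epcam, an epithelial surface protein, was at 2.05 and 2.23 RPKM in ZnF4-/- against 1.64 to 3.02 in wild type. The keratin Krt18 was at 7.58 and 12.3 RPKM in ZnF4-/- against 0.49 to 0.79 in wild type and 0.62 and 0.69 in ZnF1-/-. With Cldn4 included, the summed level of the list was 14.2 to 19.6 RPKM in wild type, 10.8 and 16.5 in ZnF1-/- and 44.7 and 51.6 in ZnF4-/-. Limma called 2 of the 4 tested markers of the list higher in ZnF4-/-, Cldn4 and Krt18, beside 2.24% of all genes. With the block 2 were called higher, beside 6.1%. Cldn4 was chosen for its ZnF4-/- level, and it made up 29.3 and 34.2 RPKM of the ZnF4-/- sums.

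Ctnna1 (chromosome 18, 35278542 to 35414427, plus strand) was at 6.75, 9.41 and 9.88 RPKM in wild type, 9.29 and 14.3 in ZnF1-/- and 19.6 and 28.0 in ZnF4-/-. Its 50 bp ZnF1-/- library was 1.45 times the highest wild type value, so this gene met the rule through its 76 bp library alone. Its change in ZnF4-/- was 1.40 ± 0.26 log2 units (limma adjusted p = 0.0408), and the difference from ZnF1-/-, at 0.99 ± 0.29, was not called (adjusted p = 0.197). Within batches, ZnF4-/- was at 2.90 times wild type in both, and ZnF1-/- was at 1.38 and 1.48 times wild type.

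The rest of this group was at 2.17 to 2.88 times wild type, apart from the adhesion receptors and Cldn4 and Ctnna1 given above. Vcl, for vinculin, which ties adhesion sites to actin, was at 1.92 to 2.22 RPKM in wild type, at 2.00 and 2.51 in ZnF1-/- and at 4.71 and 4.43 in ZnF4-/-. Septin8, of the septin family of filament-forming GTPases, was at 1.76 to 2.80, at 2.48 and 3.94, and at 6.78 and 5.81 RPKM in the same order. Its symbol was 1 of 14 that the table holds as date numbers, and it was identified by its transcript accession.
Ahnak, a very large scaffold protein, and Arhgap20, a GTPase-activating protein, were at 2.69 and 2.66 times their wild type means in ZnF4-/-. Tgfbi, a secreted matrix protein, was at 4.59 and 4.88 RPKM in ZnF4-/- against 1.19 to 2.15 in wild type. Cdc42ep4, an effector of the GTPase Cdc42, was at 12.2 and 16.1 RPKM in ZnF4-/- against 4.20 to 6.70 in wild type, and was not called (limma adjusted p = 0.157; 0.0012 with the block). Its ZnF1-/- libraries, at 2.52 and 5.69 RPKM, were far apart.

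Receptors and signalling proteins made up 12 genes, 11 of which were called higher in ZnF4-/- than in wild type, at 2.19 to 6.44 times the wild type mean. Nrgn, for neurogranin, a calmodulin-binding protein best known in neurons, stood out by level and fold. Nrgn (chromosome 9, 37352078 to 37360330, minus strand) was at 3.88, 6.00 and 6.77 RPKM in wild type, at 4.97 and 5.74 in ZnF1-/- and at 33.7 and 37.8 in ZnF4-/-. Both ZnF1-/- libraries fell inside the wild type range, and both ZnF4-/- libraries were nearly 5 times its upper end or more. The means were 5.55 ± 1.497 (SD, n = 3), 5.36 ± 0.545 (n = 2) and 35.7 ± 2.88 RPKM (n = 2). The log2 fold change was 2.61 ± 0.23 against wild type (SE; limma adjusted p = 0.00266) and 2.63 ± 0.25 against ZnF1-/- (adjusted p = 0.00277), and -0.02 ± 0.23 for ZnF1-/- against wild type.

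Ppp1r1b encodes DARPP-32, an inhibitor of protein phosphatase 1 that is also best known in neurons. Ppp1r1b (chromosome 11, 98209718 to 98219110, plus strand) was at 0.88, 1.70 and 1.65 RPKM in wild type, 1.61 and 1.35 in ZnF1-/- and 7.41 and 6.42 in ZnF4-/-. Both ZnF1-/- libraries were within the wild type range and the ZnF4-/- libraries were close to each other. That is a log2 fold change of 1.99 ± 0.24 (limma adjusted p = 0.00627). Cd163l1 (chromosome 7, 147404166 to 147417044, plus strand), of the scavenger receptor cysteine-rich family, was at 1.02, 1.27 and 0.78 RPKM in wild type, 0.50 and 0.87 in ZnF1-/- and 6.33 and 4.34 in ZnF4-/-. Its ZnF1-/- levels were at the lower end of wild type or under it, and its log2 fold change in ZnF4-/- was 1.93 ± 0.25 (adjusted p = 0.00907).

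Phlda1, a pleckstrin homology-like protein induced by T cell receptor signals, had the highest ZnF4-/- level of the signalling genes. Phlda1 (chromosome 10, 110943342 to 110945705, plus strand) was at 9.42, 14.6 and 15.6 RPKM in wild type, 14.3 and 17.5 in ZnF1-/- and 37.1 and 49.9 in ZnF4-/-. ZnF1-/- was above wild type of the same batch in both batches, by 1.52 and 1.16 times, and its 50 bp library lay just above the wild type range. The log2 fold change in ZnF4-/- was 1.70 ± 0.25 (limma adjusted p = 0.0163), while the difference from ZnF1-/-, at 1.41 ± 0.28, missed the threshold (adjusted p = 0.0507).

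Wls, the carrier that brings Wnt ligands to the cell surface, was at 10.6, 14.1 and 12.3 RPKM in wild type, 9.68 and 12.9 in ZnF1-/- and 26.2 and 30.6 in ZnF4-/-. Wls (chromosome 3, 159502701 to 159598797, plus strand) thus had groups of narrow spread, with a log2 fold change of 1.17 ± 0.19 (limma adjusted p = 0.0229).

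Bmpr2, a receptor for bone morphogenetic proteins, was at 4.43 and 4.58 RPKM in ZnF4-/- against 1.64 to 2.20 in wild type. Tulp3, a tubby-like protein that carries receptors into cilia, was at 8.21 and 10.1 RPKM in ZnF4-/-, against 2.79 to 3.50 in wild type and 2.62 and 2.91 in ZnF1-/-. With a small spread in every group, its log2 fold change was 1.37 ± 0.16 (limma adjusted p = 0.00627). Mapkapk3, a kinase downstream of p38, was at 12.4 and 14.7 RPKM in ZnF4-/- against 4.11 to 6.75 in wild type. Rassf3, a Ras-association domain protein, and Nfam1, a receptor with an activation motif of immune receptors, were nearest to the limit of the rule and are given with it below.

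Genes of membrane transport included Slc15a1, an intestinal peptide transporter, and Scamp1, a carrier membrane protein of secretory vesicles. Both were called higher in ZnF4-/-, at 2.90 and 2.34 times wild type, and from a low base. Slc15a1 was at 4.63 and 5.22 RPKM in ZnF4-/- against 1.52 to 1.84 in wild type, and Scamp1 at 3.73 and 3.84 against 1.38 to 1.87. In ZnF1-/- the genes differed in place, with Slc15a1 at 2.42 and 1.78 RPKM, within or above wild type, and Scamp1 at 1.04 and 1.51, within or under it.

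Nuclear proteins and retinoid genes made up 5 genes, of which 3 were called higher in ZnF4-/- than in wild type (5 with the block). Rdh10, an enzyme that oxidises retinol, was at 7.29 and 7.68 RPKM in ZnF4-/- against 3.33 to 3.89 in wild type (limma adjusted p = 0.0366). Rxra, a nuclear receptor that pairs with retinoic acid and other receptors, was at 4.62 and 6.70 against 1.32 to 2.54 RPKM and was not called (adjusted p = 0.071). Rora, the orphan nuclear receptor ROR alpha, was at 3.71 and 3.77 RPKM in ZnF4-/-, 1.07 to 1.55 in wild type and 0.70 and 1.16 in ZnF1-/-.
Chd7, a chromatin remodelling ATPase, was at 4.61 and 5.02 RPKM in ZnF4-/- against 1.38 to 2.12 in wild type. Snai1, a repressor of the E-cadherin gene, was at 3.97 and 3.28 against 0.87 to 1.70 RPKM and was not called (adjusted p = 0.103). The ZnF1-/- values of Snai1, 1.3 and 2.25 RPKM, reached above wild type in 1 library.

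Innate immune and plasma protein genes made up 5 genes, of which 4 were called higher in ZnF4-/- than in wild type. Iigp1, an interferon-inducible GTPase that attacks the vacuoles of intracellular parasites, had the largest fold of the 42. Iigp1 (chromosome 18, 60535683 to 60552281, plus strand) was at 1.75, 0.72 and 1.15 RPKM in wild type, 0.82 and 0.46 in ZnF1-/- and 8.29 and 12.3 in ZnF4-/-. Its ZnF1-/- levels were below wild type of the same batch in both batches, at 0.469 and 0.492 times. The log2 fold change was 2.68 ± 0.31 in ZnF4-/- (limma adjusted p = 0.00537) and -0.56 ± 0.31 in ZnF1-/-, which was not called (adjusted p = 1.00; 0.114 unadjusted).

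Ifih1 encodes MDA5, a sensor of double-stranded RNA. Ifih1 (chromosome 2, 62433850 to 62484312, minus strand) was at 2.87, 2.41 and 2.47 RPKM in wild type, 2.92 and 2.46 in ZnF1-/- and 5.49 and 6.97 in ZnF4-/-. Wild type and ZnF1-/- were almost alike batch by batch, at ratios of 1.02 and 1.01, and the log2 fold change in ZnF4-/- was 1.12 ± 0.17 (limma adjusted p = 0.0179). C3, the central complement component, was at 4.55 and 4.62 RPKM in ZnF4-/- against 1.43 to 1.89 in wild type. Tfpi, the inhibitor of tissue factor in coagulation, was at 5.52 and 4.02 RPKM against 1.25 to 1.83.

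Saa3, an acute-phase protein made by macrophages and other cells in inflammation, was the most variable of the 42. It was at 1.96, 2.90 and 0.84 RPKM in wild type, 0.39 and 2.06 in ZnF1-/- and 5.89 and 13.4 in ZnF4-/-. Replicates of 1 genotype were thus 2.28 times apart in ZnF4-/- and further apart in the other groups, and the gene was not called (limma adjusted p = 0.176; 0.0252 with the block). By the estimated depth, which is uncertain, its ZnF1-/- value in the 76 bp library was about 2.98 reads.

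Markers of myeloid cells were followed beside these genes. The summed level of 7 granulocyte and mast cell markers was 663 RPKM in ZnF4-/- replicate 1 and 126 in replicate 2, against 150 to 165 in wild type and 69.2 and 141 in ZnF1-/-. The high sum of replicate 1 came from genes such as the calcium-binding protein gene S100a8, at 297 RPKM there and 48.6 in replicate 2. Saa3, in contrast, was higher in replicate 2, and C3 was nearly equal in both. The summed level of 12 macrophage markers was 65.1 to 91.6 RPKM in wild type, 57.8 and 81.5 in ZnF1-/- and 110 and 141 in ZnF4-/-, none called by limma without the block and 2 called higher with it. The part of these cells in the levels of Saa3, C3 or Tgfbi was not tested.

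The interferon-stimulated gene list, from which Iigp1 and Ifih1 come, held 30 tested genes. In ZnF4-/- 7 of them were called higher and 0 lower (17 higher with the block), beside 2.24% of all genes called higher and 6.1% with the block, with a median log2 fold change of 0.63 against -0.05 over all tested genes. Besides Iigp1 and Ifih1 the called genes were Parp14, Usp18, Oasl2, Xaf1 and Oas3. Oasl2, of the oligoadenylate synthetase family, was at 10.03 and 12.5 RPKM in ZnF4-/- against 2.47 to 3.96 in wild type, and lay outside the 42 because both its ZnF1-/- libraries, at 2.01 and 1.38, were below wild type. Usp18, which removes ISG15 from proteins, was at 13.2 and 18.04 against 7.79 to 8.64 RPKM. Other listed genes did not differ to that degree, such as Isg15, at 6.02 and 10.6 against 6.01 to 6.27 RPKM, and Ifit3, at 0.78 and 1.61 against 0.86 to 1.61 RPKM. Iigp1 and Ifih1 count among the 7 by the choice of the genes. In ZnF1-/- 0 of the 30 were called, with a median of 0.04, and with the block 1 was called higher, Bst2, which is named here after its values were seen.

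Among 28 tested integrins, cadherins and other adhesion proteins, 4 were called higher in ZnF4-/- and 0 lower (8 higher and 1 lower with the block), beside 2.24% of all genes called higher and 6.1% with the block. They were Cd9 and Ctnna1, which were chosen for their ZnF4-/- level, the integrin Itgae and the p120 catenin gene Ctnnd1, with a median of 0.17 over the list. Ctnnd1 was at 0.53 to 0.77 RPKM in wild type, 4.82 and 4.88 in ZnF1-/- and 33.1 and 42.4 in ZnF4-/-, so it was higher in both mutants. Itgb1, the common beta-1 integrin, was at 37.1 and 60.4 RPKM in ZnF4-/- against 29.9 to 39.6 in wild type.
Among 162 tested solute carriers 3 were called higher and 1 lower in ZnF4-/-, Slc15a1 among the 3 (10 higher and 4 lower with the block), which is near the 2.24% and 6.1% of all genes called higher. None of the 42 belonged to the lists of T cell receptor signalling, of NF-kappaB targets, of MAP kinase cascades (symbols of Map2k, Map3k, Map4k, Mapk or Dusp and a number, so without Mapkapk3) or of cholesterol synthesis, in which 0 of 45, 0 of 18, 0 of 47 and 0 of 17 tested genes were called in ZnF4-/- by limma. With the block the calls in these lists were 4 higher and 5 lower, 3 higher, 2 higher and 1 lower. Over all 10498 tested genes the fit with the block called 640 higher and 223 lower, and the main fit called 235 higher and 32 lower.

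The beta-globin genes Hbb-b1 and Hbb-b2 are neighbours on chromosome 7 and are so alike that reads can be split between them. Hbb-b1 (110975048 to 110976610, minus strand) was at 7.26, 23.7 and 15.2 RPKM in wild type, 8.46 and 22.0 in ZnF1-/- and 43.4 and 44.9 in ZnF4-/-. Hbb-b2 had nearly the same values, from 7.35 to 23.6 RPKM in wild type and at 44.0 and 45.0 in ZnF4-/-, so the pair is uncertain as 2 separate observations. Wild type and ZnF1-/- were low in the 76 bp and high in the 50 bp libraries, and ZnF4-/- was level across both. The fold over wild type was therefore 5.98 in the 76 bp batch and 2.31 in the 50 bp batch for Hbb-b1, and neither gene was called (limma adjusted p = 0.27 and 0.251; 0.00902 and 0.00866 with the block).

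The other red cell markers did not go with beta-globin in both ZnF4-/- libraries. Alpha-globin, as Hba-a1, was at 2.40 RPKM in replicate 1 of ZnF4-/-, inside the wild type range of 1.87 to 3.15, and at 7.60 in replicate 2. Alas2, the red cell enzyme of haem synthesis, was at 2.74 and 9.45 RPKM against 1.78 to 4.93 in wild type. Limma called 0 of the 5 tested red cell markers without the block, and 2 with it, the beta-globin pair. The part of red cells in the levels of Hbb-b1 and Hbb-b2 was not tested.

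**Figure D2:**
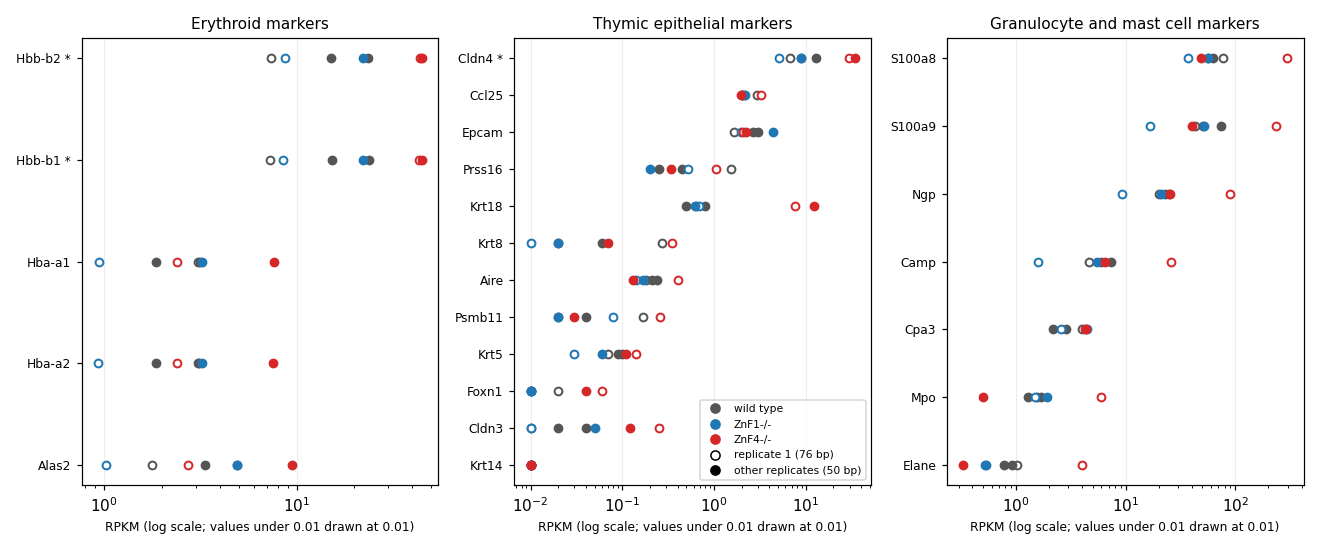
RPKM on a log scale in each library for named erythroid, thymic epithelial and granulocyte and mast cell markers, with values under 0.01 drawn at 0.01; asterisks mark genes among the 42, open circles the 76 bp and filled circles the 50 bp libraries. Hbb-b1 and Hbb-b2 are at 43.4 to 45.0 RPKM in both ZnF4-/- libraries while Hba-a1 is at 2.40 and 7.60. Cldn4 and Krt18 are high in both while Foxn1 and Krt14 stay at 0.06 or less, and S100a8 is high in replicate 1 alone.

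Of the remaining loci, Cdr2l was at 7.31 and 8.17 RPKM in ZnF4-/- against 1.37 to 2.46 in wild type. Bivm was at 5.12 and 5.01 against 2.34 to 2.72 RPKM, with the lowest ratio of means of the 42. The uncharacterised 2010016I18Rik was at 18.5 and 12.3 against 5.02 to 6.40 RPKM, and it shares exon bases on the other strand with Dennd2d, at 18.8 and 13.4 against 12.1 to 14.7 RPKM. The strand of the libraries is not given, so reads of this pair cannot be told apart. In all, 9 of the 42 share exon bases with another annotated gene, 2 on the same and 7 on the other strand. Vcl overlaps Ap3m1, which was at 5.57 and 3.87 RPKM in ZnF4-/- against 4.49 to 5.42 in wild type.

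Mir1903 had the highest levels of the 42, yet its value is that of 81 bases only. The mature miRNA in RefSeq, with its seed (bases 2 to 8) in capitals, lies at chr8:128359251-128359272 on the plus strand of GRCm38.p6.
mmu-miR-1903: cCUUCUUCuucuuccugagaca
On NCBIM37 the locus (chromosome 8, 130883141 to 130883220, plus strand) lies inside Nrp1, for the receptor neuropilin 1, and shares exon bases with it on the same strand. Its level was 15.5, 24.8 and 20.4 RPKM in wild type, 16.8 and 20.7 in ZnF1-/- and 56.7 and 53.6 in ZnF4-/-. Nrp1 was at 15.4, 15.8 and 15.8 RPKM in wild type, 10.6 and 15.7 in ZnF1-/- and 25.5 and 44.6 in ZnF4-/- (limma adjusted p = 0.11; 0.00409 with the block). Libraries of polyadenylated RNA do not measure mature miRNAs, and reads on this locus cannot be told apart from those of Nrp1.

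The ZnF1-/- libraries did not all sit at the wild type level. Of the 42 genes, 13 had both ZnF1-/- libraries in the wild type range, 11 had 1 above it and 18 had 1 below it. Over all 10336 genes with a wild type mean of at least 1 RPKM these shares were 36.5%, 18.3% and 25%. Those shares are not on like terms, since only 79.8% of the 10336 had a ZnF1-/- library in range, which the rule asked of all 42. The library outside the range was mostly the low replicate 1 or the high replicate 2. Replicate 1 was the one below in 15 genes and above in 2, and replicate 2 was the one above in 9 and below in 3, and over all expressed genes with 1 library outside these 4 shares were 50.4%, 11.9%, 30.3% and 7.35%. Compared within batches, ZnF1-/- was above wild type in both batches for 15 genes and below in both for 15. The matching shares over all expressed genes were not counted, so these counts are not read further.

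The 6 highest ratios of ZnF1-/- to wild type means were those of Ddr1 (1.55), Septin8 (1.47), Ctnna1 (1.36), Snai1 (1.31), Slc15a1 (1.24) and Rassf3 (1.23). Among the lowest were those of Iigp1 (0.530), Saa3 (0.645), Cd163l1 (0.669), Cdc42ep4 (0.714) and Rora (0.715). None of the 42 was called in ZnF1-/- against wild type by limma, with or without the block, beside 0.0857% and 0.876% of all genes tested. At an unadjusted p under 0.05 there were 0 without the block, beside 3.85% of all. With the block there were 5, beside 8.73% of all, with Ctnna1, Ddr1, Phlda1 and Septin8 higher and Cdc42ep4 lower. For Ctnna1 that fit gave 0.50 ± 0.09 log2 units (limma adjusted p = 0.0669) and for Ddr1 0.59 ± 0.15 (adjusted p = 0.16). The rule asked for a ZnF1-/- library in the wild type range, so the low counts of calls in ZnF1-/- follow in part from the choice of the genes. A missed threshold does not show that ZnF1-/- equals wild type. The ZnF1-/- and ZnF4-/- comparisons use the same wild type libraries.

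**Figure D3:**
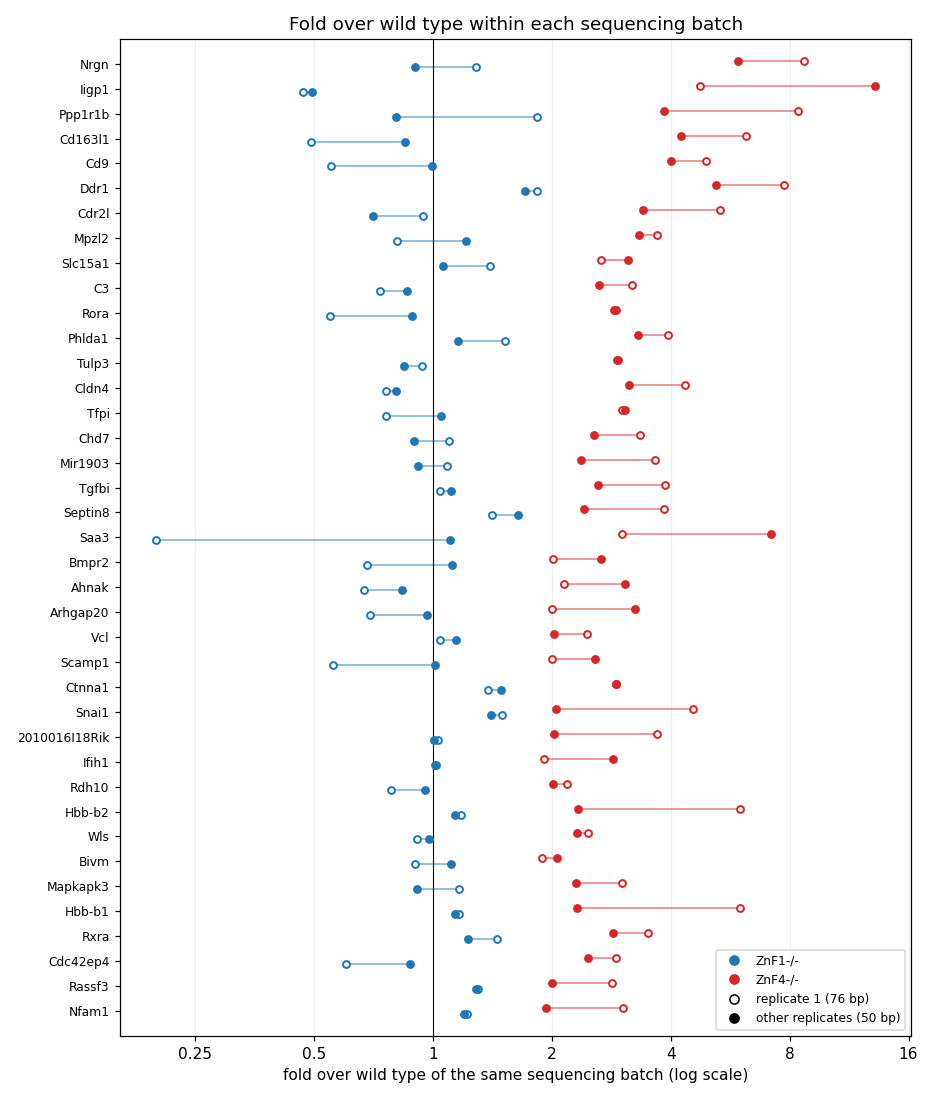
Fold over wild type of the same sequencing batch, on a log scale, for ZnF4-/- (red) and ZnF1-/- (blue), with open circles for the 76 bp and filled circles for the 50 bp batch (against the mean of 2A and 2B), for 39 of the 42 genes. Every gene is at 1.88 times wild type or more in ZnF4-/- in both batches, and the ZnF1-/- folds lie on both sides of 1, and of all 42 genes 15 are above in both batches and 15 below in both.

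Both ZnF4-/- libraries were above both ZnF1-/- libraries for all 42 genes, beside 14.4% of all expressed genes. For 35 the lower ZnF4-/- value was at least 1.8 times the higher ZnF1-/- value, a margin not counted over all expressed genes. The median of this ratio was 2.27 in the 42, against 0.796 over the 10308 expressed genes above 0 in every library. The gap was narrowest for Ctnna1, at 1.37 times, followed by Snai1 at 1.46 and Septin8 at 1.47, and widest for Iigp1, at 10.1 times. The median log2 difference between the mutants was 1.44, against -0.03 over all tested genes. The rule set ZnF4-/- above wild type and held a ZnF1-/- library in the wild type range. These gaps between the mutants therefore follow largely from the choice of the genes.

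Within ZnF4-/-, replicate 2 was the higher library for 29 genes and replicate 1 for 13. This lean was not particular to the 42. Their median ratio of replicate 2 to replicate 1 was 1.06, against 1.11 over the 10308 expressed genes above 0 in every library. The ratio of replicate 2 to replicate 1 was highest for Saa3 (2.28), Ddr1 (1.54) and Iigp1 (1.49) and lowest for 2010016I18Rik (0.664) and Cd163l1 (0.686). Folds over wild type were 1.88 to 8.68 with a median of 3.23 in the 76 bp batch and 1.93 to 13.2 with a median of 2.86 in the 50 bp batch. Wild type replicate 1 was the lowest wild type library for 27 of the genes, or 64.3%, near the 65.9% of all expressed genes.

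The 42 genes are a minority of those raised in ZnF4-/-. There were 143 expressed genes whose lower ZnF4-/- library was at least 1.8 times the highest wild type library, 1.38% of all expressed genes. Of these 43, or 30.1%, had a ZnF1-/- library in the wild type range, against 79.8% of all expressed genes. Both ZnF1-/- libraries were above the range for 34 (23.8%, against 6.27% of all expressed genes) and both were below it for 50 (35.0%, against 7.01%). These shares are counts over genes and carry no test. The 34 genes that were also above wild type in ZnF1-/- had wild type means of 1.00 to 12.7 RPKM with a median of 2.33, and ZnF4-/- means of 2.03 to 13.0 times wild type with a median of 2.90, close to the 2.03 RPKM and 2.84 times of the 42. Their wild type values were tighter, with a median ratio of highest to lowest wild type library of 1.33 against 1.59 in the 42. A wide wild type range can take in more ZnF1-/- values, but its part in the ZnF1-/- condition was not tested.

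**Figure D4:**
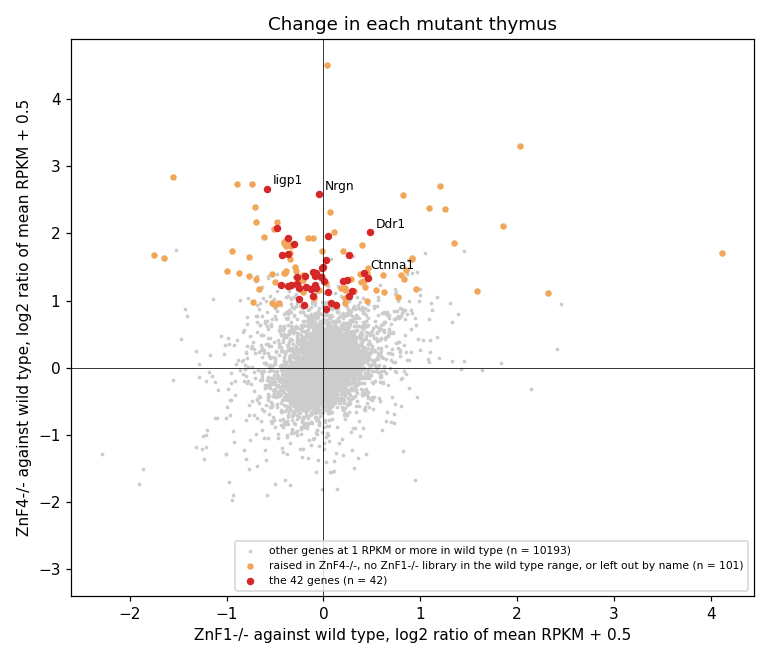
Log2 ratio of mean RPKM + 0.5 in ZnF1-/- against wild type (x axis) and in ZnF4-/- against wild type (y axis) for genes with a wild type mean of at least 1 RPKM; red points are the 42 genes, orange points the other 101 of the 143 raised in ZnF4-/-, and grey points the rest. The red points sit high on the y axis and near 0 on the x axis by the choice of the genes, with Ddr1 and Ctnna1 to the right and Iigp1 to the left, and orange points lie to both sides.

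At the 1.8-fold limit the choice is a matter of small differences. Just inside it were Nfam1 (exactly 1.8), Rassf3 (1.804), Cdc42ep4 (1.82), Rxra (1.82) and Hbb-b1 (1.83), and just outside it were Odz1 (1.796), Cln3 (1.74), Hsd3b7 (1.74), 1110017F19Rik (1.73) and Slc7a7 (1.72). Nfam1 was at 1.16, 1.95 and 1.70 RPKM in wild type and 3.51 and 3.52 in ZnF4-/-. Odz1 was at 1.32, 0.99 and 0.87 RPKM in wild type and 2.37 and 2.71 in ZnF4-/-. Rassf3 was at 2.92 to 4.33 RPKM in wild type and 8.31 and 7.81 in ZnF4-/-, with a ZnF1-/- library above wild type at 5.02. The ratio was at least 2 for 25 of the genes and at least 3 for 6, which were Nrgn, Iigp1, Ppp1r1b, Cd163l1, Cd9 and Ddr1.

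The genes were spread over 18 chromosomes, with chromosome 9 holding the most, 6 genes, among them Nrgn, Mpzl2, Rora, Arhgap20 and Mapkapk3. The only neighbours among them that are copies of each other were the beta-globin genes.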

How the data were processed

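Whole thymus RNA was measured in 3 wild type, 2 ZnF1-/- and 2 ZnF4-/- libraries. The deposited values are RPKM per gene. Per the labels' design text, exonic reads were counted in SeqMonk on the NCBI annotation of mm9 and duplicate transcripts of a gene were removed. TopHat and bedtools are named in the submitters' processing notes, and versions, strand and read totals are not given in the sources used here. The gene length of the deposited table was used for the depth estimate only, in which steps of whole reads were matched within 0.006 RPKM (13.0%, 23.4% and 48.3% of low values on a step, against 3.65%, 5.11% and 6.6% by chance), and these depths are best fits.

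RPKM were taken as log2(RPKM + 0.5), which understates folds of low genes. Those averaging 1 RPKM or more across the 7 libraries, 10498 genes, were tested with limma 3.58.1 (R 4.3.3; 3 groups in 1 fit, trended prior) and adjusted by Benjamini-Hochberg, called under 0.05. SE and adjusted p are from that fit, checked on simulated data. Per the labels, replicate 1 marks 76 bp reads and a number therefore a batch; libraries with the same number deviated together (correlation 0.489 to 0.737), so a fit with the number as a block stands beside the main one. No label says that libraries are separate animals, so p-values measure the spread between libraries. The genes and lists were chosen with earlier results of these data known, and the role groups after the values were seen. Genes were named in full by their ratio to wild type, wild type mean, nearness to the limit, list membership and ZnF1-/- place, and the others with the values of their role group. Gene coordinates are from GENCODE M1 on NCBIM37, promoters and the miRNA from RefSeq. Values of some genes and of some gene families are not reported here.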

Additional observations from a re-analysis of the deposited data

How the results depend on the processing

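With the replicate block, 42 genes were called higher in ZnF4-/- than in wild type in place of 35, 41 against ZnF1-/- in place of 28, and 0 in ZnF1-/- against wild type in both. Each of the 42 genes had a positive ZnF4-/- fold in every setting that tested it. Averaging wild type 2A and 2B, which leaves fewer libraries, gave 9 and 18 calls in the first 2 comparisons. Leaving out 1 library each gave 1 to 33 calls against wild type (1 without ZnF4-/- replicate 2, 3 without ZnF4-/- replicate 1, 8 without wild type 2B, 20 without 2A) and 4 to 31 against ZnF1-/- (4 without either ZnF4-/- library, 5 without ZnF1-/- replicate 1, 14 without ZnF1-/- replicate 2 or wild type 2B), and an arm of 1 library is then assumed to vary like the others. The cause was not tested beyond the fewer libraries. Nrgn was called in all 17 settings, Iigp1 and Tulp3 in 16 and Saa3 and the beta-globin pair in 1, that with the block. Other pseudocounts, filters, quantile normalization and no trend gave 30 to 35 calls against wild type, and a common median gave 38. The rule itself gave 87 genes at 1.5-fold, 25 at 2-fold, 22 at a wild type mean of 2 RPKM, 13 with both ZnF1-/- libraries in range and 49, 30 of them shared, after scaling to a common median. Without 1 library it gave 25 to 101 genes, with 25 without wild type 1, of which 22 were shared, 25 without ZnF1-/- replicate 2, 101 without ZnF4-/- replicate 1 and 88 without ZnF4-/- replicate 2. TGGGAA in place of GGGAA was in 28.6% of windows.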
